A study of Mus musculus with 8 samples.

Results

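Genes for the synthesis and use of nicotinamide adenine dinucleotide (NAD) were followed in quadriceps femoris (QF) muscle of mice labelled as knockouts of Grpel1, a helper protein of the mitochondrial HSP70 import motor. The 10 genes were Nampt, Nmrk1, Nmrk2, Nmnat1, Nmnat3, Nadk2, Sirt1, Sirt3, Sirt5 and Parp1, chosen by name, and all 10 were present among the 14012 genes of the table. RNA came from 4 knockout mice, labelled KO (Grpel1 smk -/-), and from 4 control mice, labelled WT (Grpel1 flox/flox), with 1 library per animal. Both groups carried the floxed Grpel1 gene, and the knockout mice also carried a tamoxifen-inducible Cre recombinase under the human skeletal muscle α-actin promoter, so that the deletion was aimed at muscle fibres and not at the other cells of the muscle. The line was founded in C57BL/6NCrl blastocysts, and the strain is not in the labels. Tamoxifen was begun in young mice, but the labels give no age and no treatment, and whether the sequenced controls also received tamoxifen is not given in the sources used here, so an effect of the drug and one of the deletion cannot be told apart. The mRNA of Grpel1 itself did not check the labels: it was 68.4 ± 3.04 CPM (counts scaled to library size and composition) in controls and 65.3 ± 6.11 CPM in knockouts (SD, n = 4 each), which is a log2 fold change of -0.066 with a standard error of 0.078 (adjusted p = 0.49 in edgeR's quasi-likelihood fit, adjusted by Benjamini-Hochberg over all genes). Every direction below therefore rests on the labels.

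NAD carries electrons between the pathways that burn fuel and the respiratory chain, and sirtuins and poly(ADP-ribose) polymerases (PARPs) split it to modify proteins. Splitting NAD frees nicotinamide, which NAMPT returns to nicotinamide mononucleotide (NMN), the slowest step of salvage in most tissues. NMN is also made from nicotinamide riboside by the kinases NMRK1 and NMRK2, the latter found mainly in muscle, and NMNAT enzymes join NMN to ATP to give NAD. NMNAT1 works in the nucleus and NMNAT3 has been placed in mitochondria, where NADK2 phosphorylates NAD to NADP and where the sirtuins SIRT3 and SIRT5 remove acyl groups from proteins.

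Sirt1, Parp1 and Nmrk2 are shown with the sequence before their start, since they are in this order the gene that rose, the gene whose fall had the smallest adjusted p and the gene with the largest fall. The sequences are the 250 bases before the RefSeq start on GRCm38.p6, read 5′ to 3′ on the strand of the gene, and capitals mark CACGTG, the E-box that clock factors bind.
Sirt1, chr10:63339036-63339285, minus strand: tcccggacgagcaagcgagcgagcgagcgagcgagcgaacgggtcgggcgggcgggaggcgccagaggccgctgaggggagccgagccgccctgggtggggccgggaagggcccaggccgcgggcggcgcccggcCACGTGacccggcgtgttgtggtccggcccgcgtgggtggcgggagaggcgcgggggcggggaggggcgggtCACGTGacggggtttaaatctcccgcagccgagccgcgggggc
Parp1, chr1:180568641-180568890, plus strand: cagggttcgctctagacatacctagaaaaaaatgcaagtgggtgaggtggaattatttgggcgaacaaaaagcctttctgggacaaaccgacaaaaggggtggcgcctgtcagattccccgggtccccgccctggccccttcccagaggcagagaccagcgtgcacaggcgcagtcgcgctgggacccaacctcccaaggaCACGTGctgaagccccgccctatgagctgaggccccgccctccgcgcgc
Nmrk2, chr10:81202038-81202287, minus strand: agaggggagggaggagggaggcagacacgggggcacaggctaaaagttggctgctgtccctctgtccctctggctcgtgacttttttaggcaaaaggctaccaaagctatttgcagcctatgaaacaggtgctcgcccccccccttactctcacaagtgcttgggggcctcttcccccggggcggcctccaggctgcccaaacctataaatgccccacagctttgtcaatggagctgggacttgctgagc
Sirt1 held the E-box at 2 places, from 115 to 110 and from 43 to 38 bases before its start, and Parp1 held it once, from 49 to 44 bases before. Nmrk2 held none of the 3 motifs searched on both strands, which were CACGTG, TGATGNAAT (a composite element of ATF4) and TGACGTCA (the cAMP response element). In the same window, 6.02% of 32851 RefSeq starts held CACGTG, 0.816% held TGATGNAAT and 1.55% held TGACGTCA. RefSeq gave 11 such windows for 9 of the 10 genes, and the other 6 genes with a window held none of these letters. The Sirt1 window was 79.2% G and C with 39 CpG, the Parp1 window 61.6% with 16 and the Nmrk2 window 58.8% with 5, where the median over all windows was 52.4% and 6. A match is a description of the letters and not of binding.

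Most of the 10 genes that differed were lower in knockout muscle under TMM scaling, which sets the typical gene near 0, while none of these falls passed when libraries were scaled by their totals alone. At an adjusted p under 0.01, Nmrk2, Nmnat1, Nadk2, Parp1 and Sirt3 were lower and Sirt1 was higher, while Nampt, Nmnat3, Nmrk1 and Sirt5 did not pass the test. This is 6 of 10 genes, where 44.7% of all 14012 genes passed. The share of all genes that was higher came to 23.6% and the share that was lower to 21.1%, against 1 and 5 of the 10. For the same 6 genes the 4 knockout values lay wholly outside those of the controls, as they did for 53.4% of all genes. Over the 10 genes the log2 fold changes had a median of -0.46, over all genes one of 0.065. In RNA from whole muscle, fewer cells of a type and less RNA per cell cannot be told apart.

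**Figure D1:**
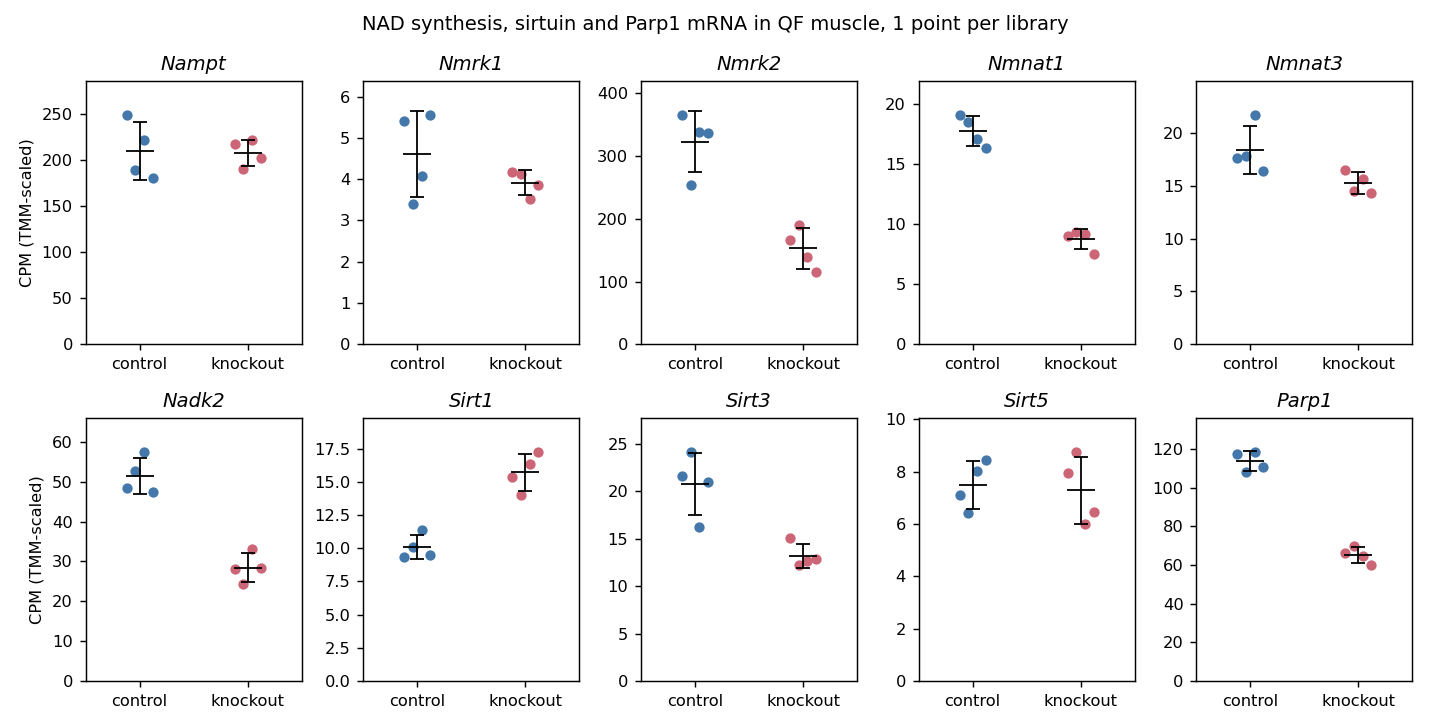
Level of each of the 10 genes in CPM (y axes from 0, TMM-scaled) in the 4 control and the 4 knockout libraries, with 1 point per library and bars for the mean and SD. The knockout points lie wholly below the controls for Nmrk2, Nmnat1, Nadk2, Sirt3 and Parp1 and wholly above them for Sirt1, and the groups overlap for Nampt, Nmrk1, Nmnat3 and Sirt5.

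The libraries held 16017565 to 20361144 counts, and 1 count was worth 0.0397 to 0.0808 CPM. A gene with no counts could have reached 0.119 to 0.242 CPM (3 counts, which covers counting error only). TMM factors, which adjust for the composition of a library, lay between 0.747 and 0.844 for controls and between 1.19 and 1.33 for knockouts and so parted the groups. Markers of skeletal muscle fibres summed to 276918 to 363309 CPM in controls and 96553 to 137191 CPM in knockouts. Of the 12 markers 11 were lower, among them Acta1, Ckm, Ttn and Neb, and 11 were lower on totals alone too. The other marker, the myosin Myh1, was 2.22-fold higher under TMM (adjusted p = 0.0017 in edgeR). By the summed level of these markers the RNA of each library was that of skeletal muscle.

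The salvage enzyme itself was not among the genes that passed the test. Nampt (Entrez Gene 59027, chr12:32820335-32853369 of GRCm38, plus strand) was 248, 189, 221 and 179.8 CPM in control replicates 1 to 4. In knockout replicates 1 to 4 it was 217, 189.6, 222 and 202 CPM. All 4 knockouts lay within the range of the controls, and the means were 209.5 ± 31.2 CPM in controls and 207.5 ± 14.5 CPM in knockouts (SD, n = 4 each). The log2 fold change was -0.014 with a standard error of 0.11 (adjusted p = 0.92), on 2854 to 5366 counts per library, so the depth does not limit this value. The span of Nampt shares 2804 bases on its strand with Gdap10, which was at 0.434 CPM in controls and 0.371 CPM in knockouts.

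The muscle kinase of nicotinamide riboside showed the largest fall of the 10 genes. Nmrk2 (Entrez Gene 69564, chr10:81198170-81202037, minus strand) was 365, 254, 338 and 336 CPM in control replicates 1 to 4. The knockouts held 167, 191, 139.7 and 115 CPM, all below the lowest control. The mean fell from 323 ± 48.3 to 153 ± 32.7 CPM (SD, n = 4 each), which is a fitted log2 fold change of -1.08 with a standard error of 0.16, or 2.11-fold lower (adjusted p = 2.7e-04). An exact permutation test of the CPM gave p = 0.0286, two-sided, the smallest that 4 against 4 allow. The whole span of Nmrk2, 3868 bases, is shared with the antisense gene Atcayos, which had 22.4 CPM in controls and 27 CPM in knockouts (log2 fold change 0.27, adjusted p = 0.24). In GENCODE vM21, 270 of the 1854 exon bases of Nmrk2 are shared with exons of Atcayos. Whether the counting used strand is not given in the sources used here, so reads of this pair on shared bases may not be told apart.

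The other riboside kinase was scarce. Nmrk1 (Entrez Gene 225994, chr19:18632016-18652191, plus strand) was 5.41, 3.40, 4.08 and 5.55 CPM in control mice and 4.17, 4.12, 3.51 and 3.86 CPM in knockout mice. The control range enclosed every knockout value. Its log2 fold change was -0.23 with a standard error of 0.17 (adjusted p = 0.27) on 52 to 100 counts per library. The kinases could also be compared inside each library, where the scaling of libraries does not enter. The log2 ratio of Nmrk2 to Nmrk1 counts was 6.06, 6.21, 6.36 and 5.91 in the controls and 5.32, 5.52, 5.31 and 4.90 in the knockouts. It fell by 0.88 on the log2 scale (exact permutation test, adjusted p = 0.0343 over the 6 ratios tested), so Nmrk2 fell more than Nmrk1.

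Per exon length, Nmrk2 exceeded Nmrk1 by 63.5 ± 8.48 fold in the controls and 34.7 ± 6.0 fold in the knockouts (SD of the FPKM ratio, n = 4 each). Nmrk2 also exceeded Nampt by 3.84 ± 0.558 fold in the controls and by 1.84 ± 0.477 fold in the knockouts on the same FPKM scale. The log2 count ratio of Nmrk2 to Nampt ran from 0.42 to 0.90 among controls and from -0.81 to 0.0080 among knockouts, without overlap. Its mean fell by 1.08 (exact permutation test, adjusted p = 0.0343). The riboside kinase of muscle thus remained the more abundant mRNA of this pair per length, by a smaller margin.

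The adenylyl transferases, which make NAD from NMN, differed in how far they moved. Nmnat1 (Entrez Gene 66454, chr4:149468787-149485142, minus strand), the nuclear enzyme, was 19.1, 18.5, 17.1 and 16.4 CPM in the controls. The knockouts held 9.01, 9.39, 9.21 and 7.51 CPM, again all below the controls. The mean fell from 17.8 ± 1.24 to 8.78 ± 0.858 CPM (SD, n = 4 each), which is a log2 fold change of -1.02 with a standard error of 0.10, or 2.02-fold lower (adjusted p = 1.6e-05, on 189 to 283 counts per library). The groups were tight, and the exact permutation test gave the smallest p it allows, 0.0286.

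Nmnat3 (Entrez Gene 74080, chr9:98296583-98411428, plus strand) was 17.6, 17.9, 21.7 and 16.4 CPM in control mice and 16.6, 14.6, 15.6 and 14.3 CPM in knockout mice. Only knockout replicate 1 reached the control range, above control replicate 4. Its log2 fold change was -0.27 with a standard error of 0.10, which did not pass (adjusted p = 0.043), and the exact permutation test gave p = 0.0571. The log2 ratio of Nmnat3 to Nmnat1 was -0.11, -0.052, 0.34 and 0.0055 in the controls and 0.88, 0.63, 0.76 and 0.93 in the knockouts. It rose by 0.76 (exact permutation test, adjusted p = 0.0343). Per exon length the Nmnat3 mRNA was 0.459 ± 0.0686 times that of Nmnat1 in controls and 0.773 ± 0.0700 times in knockouts (SD of the FPKM ratio, n = 4 each).

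Of the NAD kinases, the mitochondrial enzyme was lower in the knockouts. Nadk2 (Entrez Gene 68646, chr15:9071260-9110496, plus strand) was 48.6, 52.7, 57.5 and 47.3 CPM in the controls. It was 28.1, 24.4, 33.0 and 28.4 CPM in the knockouts, with no overlap. Its mean fell from 51.5 ± 4.59 to 28.5 ± 3.53 CPM (SD, n = 4 each), which is a log2 fold change of -0.85 with a standard error of 0.10, or 1.81-fold lower (adjusted p = 5.3e-05). Nadk, which makes NADP in the cytosol, was 34.3 ± 4.41 CPM in controls and 50.2 ± 13.7 CPM in knockouts, with a log2 fold change of 0.55 that did not pass (adjusted p = 0.027). The log2 ratio of Nadk2 to Nadk ran from 0.25 to 0.98 among controls and from -1.21 to -0.013 among knockouts. It fell by 1.37 (exact permutation test, adjusted p = 0.0343), the widest of the 6 shifts in ratio. Per exon length Nadk2 went from 1.17 ± 0.247 to 0.471 ± 0.201 times the level of Nadk (SD of the FPKM ratio, n = 4 each).

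Sirt1 was the only gene of the 10 past the threshold that was higher in the knockouts. SIRT1 is a deacetylase of the nucleus that acts on histones and on transcription factors of metabolism. Sirt1 (Entrez Gene 93759, chr10:63319005-63339035, minus strand) was 9.37, 10.1, 11.4 and 9.51 CPM in the controls. It was 15.3, 14, 16.3 and 17.3 CPM in the knockouts, all above the highest control. The mean rose from 10.1 ± 0.915 to 15.7 ± 1.39 CPM (SD, n = 4 each), which is a log2 fold change of 0.64 with a standard error of 0.10, or 1.56-fold higher (adjusted p = 3.8e-04, on 116 to 434 counts per library).

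Of the mitochondrial sirtuins followed, Sirt3 was lower and Sirt5 did not pass. Sirt3 (Entrez Gene 64384, chr7:140863663-140882309, minus strand), the main deacetylase of the mitochondrial matrix, was 21.7, 24.2, 16.2 and 21 CPM in the controls. The knockouts held 15.1, 12.3, 12.6 and 12.9 CPM, below each control, with control replicate 3 the nearest to them. The mean fell from 20.8 ± 3.31 to 13.2 ± 1.25 CPM (SD, n = 4 each), which is a log2 fold change of -0.65 with a standard error of 0.13, or 1.57-fold lower (adjusted p = 0.0013). Sirt3 lies against genes on the other strand: its span shares 69 bases with Ric8a, and in GENCODE vM21 its exons also meet those of Psmd13. Ric8a was higher in the knockouts by 1.05 on the log2 scale (adjusted p = 3.4e-06) and Psmd13 by 0.52 (adjusted p = 1.0e-04), opposite to Sirt3. Their part in the Sirt3 count was not tested.

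Sirt5 (Entrez Gene 68346, chr13:43365535-43395203, plus strand), which removes succinyl and malonyl groups, was 7.11, 6.42, 8.02 and 8.44 CPM in control mice and 7.96, 8.75, 5.99 and 6.44 CPM in knockout mice. The groups overlapped on most of their range. Its log2 fold change was -0.044 with a standard error of 0.15 (adjusted p = 0.82), on 88 to 191 counts per library. The log2 ratio of Sirt5 to Sirt3 ran from -1.91 to -1.02 among controls and from -1.07 to -0.49 among knockouts. These ranges met, and the rise of 0.59 did not pass (exact permutation test, p = 0.0571, adjusted p = 0.0571 over the 6 ratios).

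Sirt1, of the nucleus, and Sirt3, of the matrix, moved apart when compared within each library. The log2 ratio of Sirt3 to Sirt1 was 1.20, 1.26, 0.51 and 1.14 in control replicates 1 to 4 and -0.028, -0.19, -0.37 and -0.42 in knockout replicates 1 to 4. It fell by 1.28 (exact permutation test, adjusted p = 0.0343), and the lowest control stayed above the highest knockout. Per exon length Sirt3 was 5.18 ± 1.11 times as abundant as Sirt1 in controls and 2.10 ± 0.266 times in knockouts (SD of the FPKM ratio, n = 4 each).

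**Figure D2:**
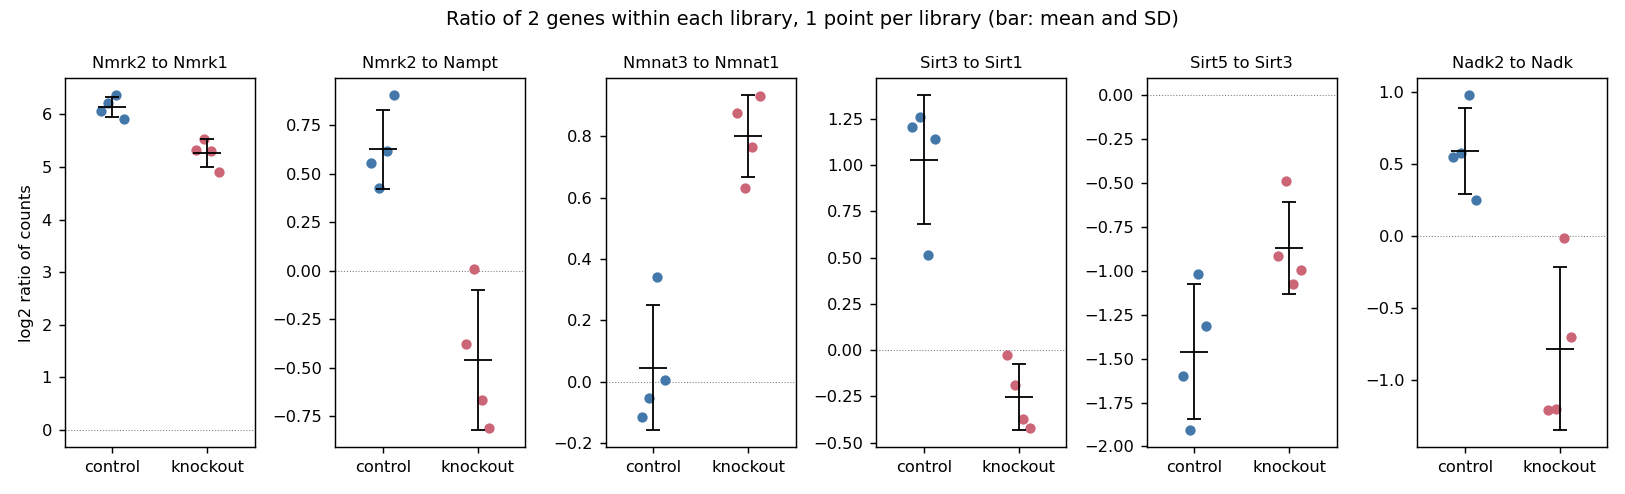
Log2 ratio of the counts of 2 genes within each library (y axis, no unit, a scale of its own in each panel), with 1 point per library, bars for the mean and SD, and a dotted line at 0. The groups part for Nmrk2 to Nmrk1, Nmrk2 to Nampt, Nmnat3 to Nmnat1, Sirt3 to Sirt1 and Nadk2 to Nadk, and they overlap for Sirt5 to Sirt3.

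The PARP that uses most NAD after DNA damage was lower as well. Parp1 (Entrez Gene 11545, chr1:180568975-180601254, plus strand) was 117.7, 108.3, 118.5 and 110.9 CPM in the controls. The knockouts held 66.0, 69.9, 64.5 and 60.1 CPM, far below each control. The mean fell from 113.9 ± 5.02 to 65.1 ± 4.06 CPM (SD, n = 4 each), which is a log2 fold change of -0.81 with a standard error of 0.068, the smallest error of the 10 genes, or 1.75-fold lower (adjusted p = 6.1e-06).

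Whether the falls passed the test depended on how the libraries were scaled, and 5 of the 10 genes (Nampt, Nmnat3, Nmrk1, Sirt3 and Sirt5) changed sign on library totals alone. Scaled by library totals alone, the typical gene moved from a log2 fold change of 0.065 to 0.73 (medians), and 90.7% of the genes past the threshold were higher, where TMM gave 52.7%. On totals alone 8498 of all 14012 genes were higher and 873 lower at an adjusted p under 0.01 by edgeR. Of the 10 genes, 4 were higher and 0 lower. The 4 were Sirt1 (1.31), Nampt (0.66), Sirt5 (0.63) and Nmnat3 (0.40), as log2 fold changes. Nmrk2 (-0.40), Nmnat1 (-0.35), Nadk2 (-0.19) and Parp1 (-0.14) stayed negative without passing, with adjusted p of 0.047, 0.010, 0.048 and 0.11, and Sirt3 stood at 0.0073. Relative to the median of all genes the order hardly moved: under TMM and under totals alone Nmrk2 was at -1.14, Nmnat1 at -1.08, and Sirt1 at 0.58. A statement that Nmrk2, Nmnat1, Nadk2, Sirt3 and Parp1 were lower therefore means lower than the typical gene of the same library, and the ratios within a library do not depend on this choice.

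**Figure D3:**
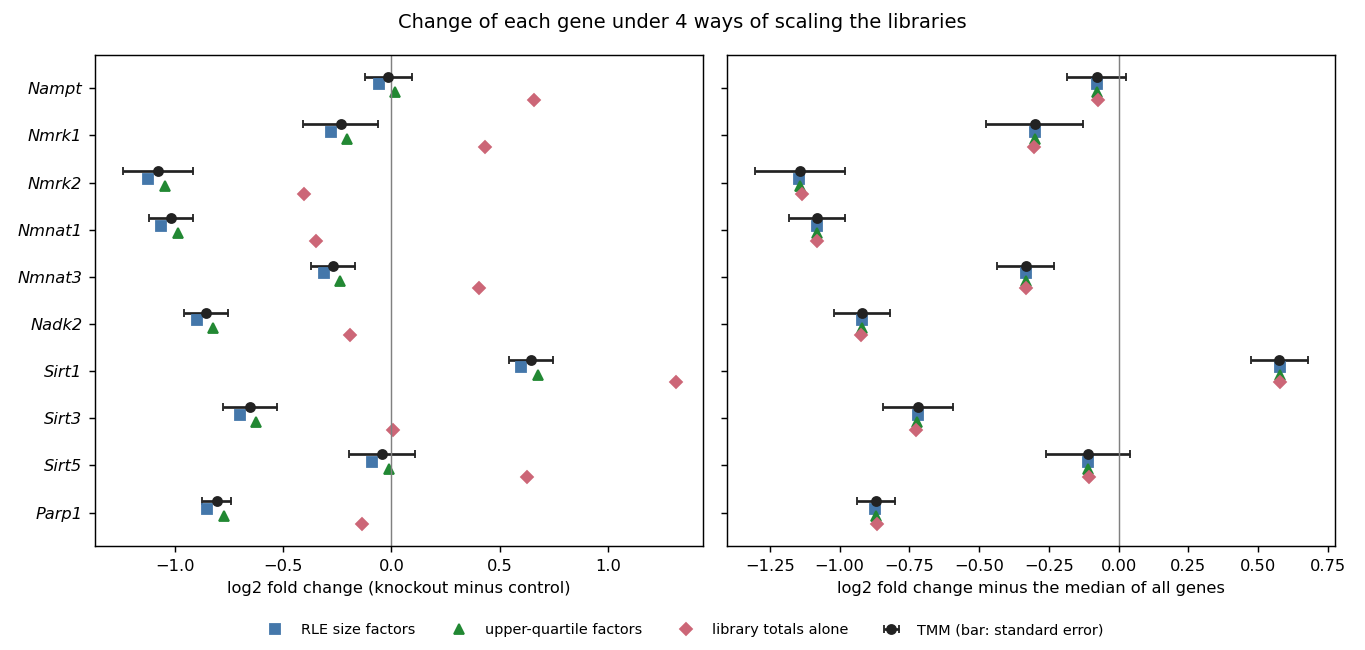
Log2 fold change, knockout minus control (x axis), of each of the 10 genes under TMM (with its standard error), RLE size factors, upper-quartile factors and library totals alone, at left as fitted and at right minus the median of all genes under the same scaling. At left the values on library totals alone lie to the right of the others for each gene, as the median of all genes does (0.73 against 0.065 under TMM), and at right the 4 marks of a gene fall together.

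By level per exon length, Nmrk2 was the most abundant of the 10 mRNAs in both groups. In the controls it had 177 ± 26.4 FPKM, before Nampt with 46.5 ± 6.99, Parp1 with 30.04 ± 1.30 and Nmnat1 with 18.8 ± 1.38 FPKM (SD, n = 4 each). Sirt3 with 13.3 ± 2.16 and Nadk2 with 12.8 ± 1.11 FPKM came next and did not differ beyond their spread. Nmnat3 with 8.60 ± 1.04 and Sirt5 with 5.53 ± 0.655 FPKM followed. Nmrk1 with 2.84 ± 0.645 and Sirt1 with 2.6 ± 0.227 FPKM closed the order, with overlapping ranges.

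In the knockouts the first places were kept by Nmrk2 with 81.4 ± 16.8, Nampt with 44.7 ± 3.62 and Parp1 with 16.7 ± 1.01 FPKM (SD, n = 4 each). Below them the levels ran close together: Nmnat1 with 9.01 ± 0.923 FPKM overlapped Sirt3 with 8.21 ± 0.719, and Nmnat3 with 6.93 ± 0.483 overlapped Nadk2 with 6.87 ± 0.964, which in turn overlapped Sirt5 with 5.20 ± 0.860. Sirt1 with 3.94 ± 0.379 FPKM stood above Nmrk1 with 2.34 ± 0.145, with no overlap. These levels rest on the deposited exon widths, which for Nmnat1 was 954 bases where the exons of GENCODE vM21 cover 3037, so the place of Nmnat1 in the order depends on the gene model. The widths for Nmrk1 (1637 against 3689 bases), Nmnat3 (2160 against 5004), Sirt3 (1575 against 5973) and Sirt5 (1369 against 6093) were also shorter. Sirt1 (3910 against 5331 bases), Parp1 (3827 against 5293), Nadk2 (4066 against 5118) and Nampt (4547 against 5054) had shorter widths too. For Nmrk2 the widths were close (1840 against 1854). The FPKM ranks and ratios therefore depend on the gene model as well.

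**Figure D4:**
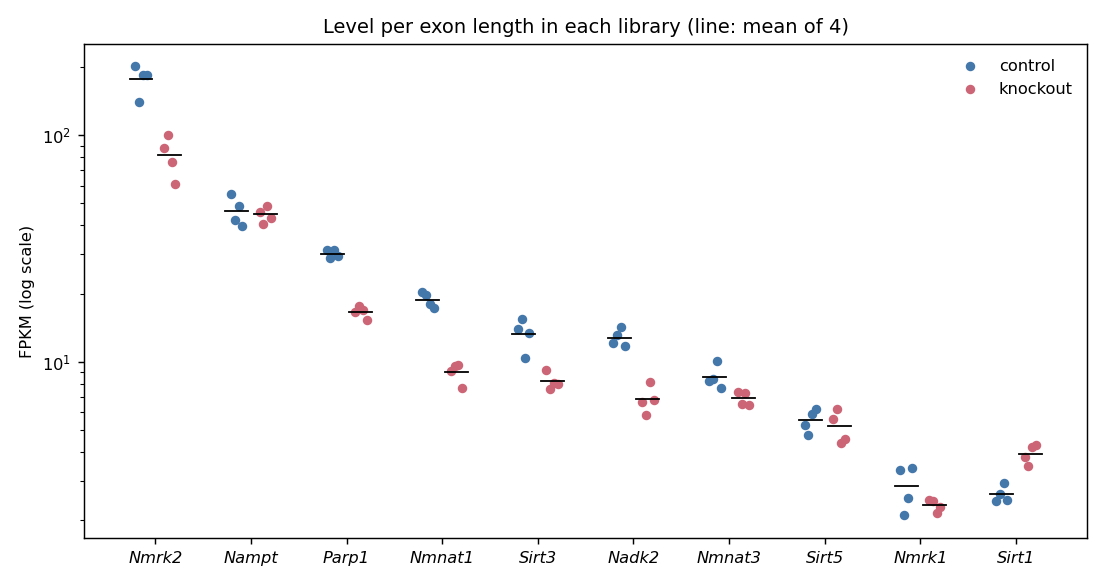
Level of the 10 genes in FPKM (y axis, log scale) in each control and knockout library, with 1 point per library and a line at the mean of 4, ordered by the control mean. Nmrk2 lies highest in both groups, at 140 to 201 FPKM in controls and 61.1 to 101 in knockouts, and Sirt1 passes Nmrk1 in the knockouts only.

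The list called other NAD synthesis here moved in both directions. Of 10 genes measured, 2 were higher, 2 were lower and 6 did not pass, with a median log2 fold change of 0.27. The list also holds Pnp and the nucleotidases Nt5c1a, Nt5c2, Nt5c3 and Nt5e, which break nucleosides or nucleotides down. Of the called genes, Qprt belongs to the tryptophan route and the rest are nucleotidases. Nt5c1a, a cytosolic 5′-nucleotidase, fell from 16.8 ± 2.69 to 1.36 ± 0.299 CPM, a log2 fold change of -3.62 (adjusted p = 3.2e-07). Nt5c2, another nucleotidase, rose from 6.16 ± 1.19 to 21.9 ± 3.88 CPM, by 1.82 (adjusted p = 9.7e-06). Both act on nucleoside monophosphates, the class to which NMN belongs. Qprt, which makes the NAD precursor of the tryptophan route, was higher by 1.44 (adjusted p = 0.0036) but reached just 1.47 ± 0.479 CPM, and it did not pass in 4 of the 8 fits that left out 1 library (control replicate 1, control replicate 4, knockout replicate 1 and knockout replicate 2). Nt5c3, the other gene called lower (log2 fold change -0.38, adjusted p = 0.0032, named after its values were seen), likewise passed in just 4 of these 8 fits and not without control replicate 1, knockout replicate 1, knockout replicate 2 or knockout replicate 4. Naprt, which starts from nicotinic acid, was 6.04 ± 0.463 CPM in controls and 5.14 ± 1.75 CPM in knockouts and did not pass (adjusted p = 0.43). Nmnat2, Haao, Kynu, Tdo2, Ido1, Ido2 and Acmsd were not analysed here.

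Among 8 genes for the phosphorylation, transport and repair of NAD, 1 was higher, 1 was lower and the median was 0.21. Nnt, the proton-driven transhydrogenase that makes NADPH from NADH in mitochondria, rose from 75.6 ± 9.07 to 261 ± 48.8 CPM, by 1.79 on the log2 scale (adjusted p = 4.4e-06), while Nadk2 of the same compartment fell. Slc25a47, a mitochondrial carrier known mainly from liver, fell by 1.02 (adjusted p = 0.0011) from a mean of 4.21 to one of 2.08 CPM. Slc25a51, the carrier that brings NAD into mitochondria, was 99.7 ± 2.56 CPM in controls and 79.7 ± 10.4 CPM in knockouts and just missed the threshold (log2 fold change -0.32, adjusted p = 0.012). It passed in DESeq2 (adjusted p = 3.8e-04).

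Of the other 4 sirtuins, Sirt7 alone passed, and it is named after its values were seen. This sirtuin of the nucleolus rose from 8.04 ± 0.473 to 14 ± 1.48 CPM, by 0.80 on the log2 scale (adjusted p = 1.1e-04), the direction of Sirt1. Sirt6 (log2 fold change 0.35, adjusted p = 0.026 in edgeR) and Sirt4 (-0.087, adjusted p = 0.53) did not pass and are also named after their values were seen. Sirt2, which is mainly cytosolic, was 97.3 ± 4.35 CPM in controls and 84.4 ± 3.81 CPM in knockouts and did not pass (log2 fold change -0.20, adjusted p = 0.019), but it did in DESeq2 (adjusted p = 0.0019).

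The list called other PARP family here was split, with 4 of 17 measured genes higher, 5 lower and a median of -0.017. It also holds Parg and Macrod1, which remove ADP-ribose. Macrod1 was among the lower genes (log2 fold change -0.92, adjusted p = 6.6e-06) and Parp2 among the higher (0.97, adjusted p = 1.1e-05). These 2 genes are named after their values were seen. Parp4 rose from 16.2 ± 1.77 to 51.3 ± 5.95 CPM, by 1.66 on the log2 scale (adjusted p = 1.1e-06). Parp3, which acts at DNA breaks, fell from 153 ± 26.2 to 67.7 ± 6.79 CPM, by 1.18 (adjusted p = 2.1e-05), and Tnks2, a tankyrase, fell from 223 ± 4.58 to 110.7 ± 2.88 CPM, by 1.01 (adjusted p = 6.3e-07). The fall of Parp1 thus was not shared by the whole family. None of 5 other genes of NAD use and nicotinamide clearance passed in edgeR, which gave 0 also at an unadjusted p under 0.05, and DESeq2 called 0, while 1 was higher on library totals alone. Cd38, a NAD hydrolase of the cell surface, was 8.17 ± 1.85 CPM in controls and 6.57 ± 0.789 CPM in knockouts. Nnmt, which methylates nicotinamide, was 4.69 ± 2.70 and 4.28 ± 0.943 CPM.

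Of 12 genes for NADH shuttles and lactate dehydrogenase 6 were lower and 2 higher, with a median of -0.71. Gpd2, the mitochondrial glycerol phosphate dehydrogenase, fell by 1.89 (adjusted p = 4.3e-05), Ldha by 1.75 (adjusted p = 1.8e-06) and Ldhd by 1.69 (adjusted p = 1.8e-06) on the log2 scale. Ldhb, the lactate dehydrogenase of heart and slow fibres, rose by 1.08 (adjusted p = 0.0094) and Slc25a13, an aspartate and glutamate carrier at 1.21 CPM in knockouts, by 1.13 (adjusted p = 0.0062). Ldhb passed in 2 and Slc25a13 in 1 of the 8 fits without 1 library, so each rise rests on nearly every library, and the list kept 0 or 1 higher gene in all 8.

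Of 14 genes in the list called NADPH makers here, 8 were higher and 1 lower, with a median of 1.09. The list also holds folate enzymes that are not NADPH makers as such. Among them are Mthfd1l, a ligase, and Mthfd2, whose dehydrogenase uses mainly NAD. Mthfd2, the mitochondrial folate dehydrogenase, rose from 5.06 ± 1.20 to 256 ± 53.5 CPM, by 5.65 on the log2 scale (adjusted p = 8.1e-08). Its partner Mthfd1l rose from 0.615 ± 0.202 to 11.6 ± 0.700 CPM, by 4.21 (adjusted p = 1.8e-07). Pgd, of the pentose phosphate pathway, rose by 2.23 (adjusted p = 1.8e-04), and Me3, a mitochondrial malic enzyme, fell by 1.14 (adjusted p = 6.2e-06).

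On library totals alone the lists moved up with the typical gene. The NADH shuttles then had 5 genes higher and 4 lower with a median of -0.040, the other PARP family 9 and 3 with 0.65, the other NAD synthesis genes 5 and 1 with 0.93, the genes of phosphorylation, transport and repair 6 and 0 with 0.88, the other sirtuins 4 and 0 with 0.80, the other genes of NAD use and nicotinamide clearance 1 and 0 with 0.54, and the NADPH makers 11 and 1 with 1.75. The named genes called lower in these lists (Nt5c1a, Slc25a47, Parp3, Tnks2, Macrod1, Gpd2, Ldha, Ldhd and Me3) stayed below 0. All but Slc25a47 still passed. Nt5c3 (0.28, adjusted p = 0.012), Slc25a51, Naprt, Cd38 and Nnmt turned positive without passing. Sirt2 turned positive and passed as higher (0.46, adjusted p = 4.6e-05 in edgeR), where DESeq2 called it lower.

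**Figure D5:**
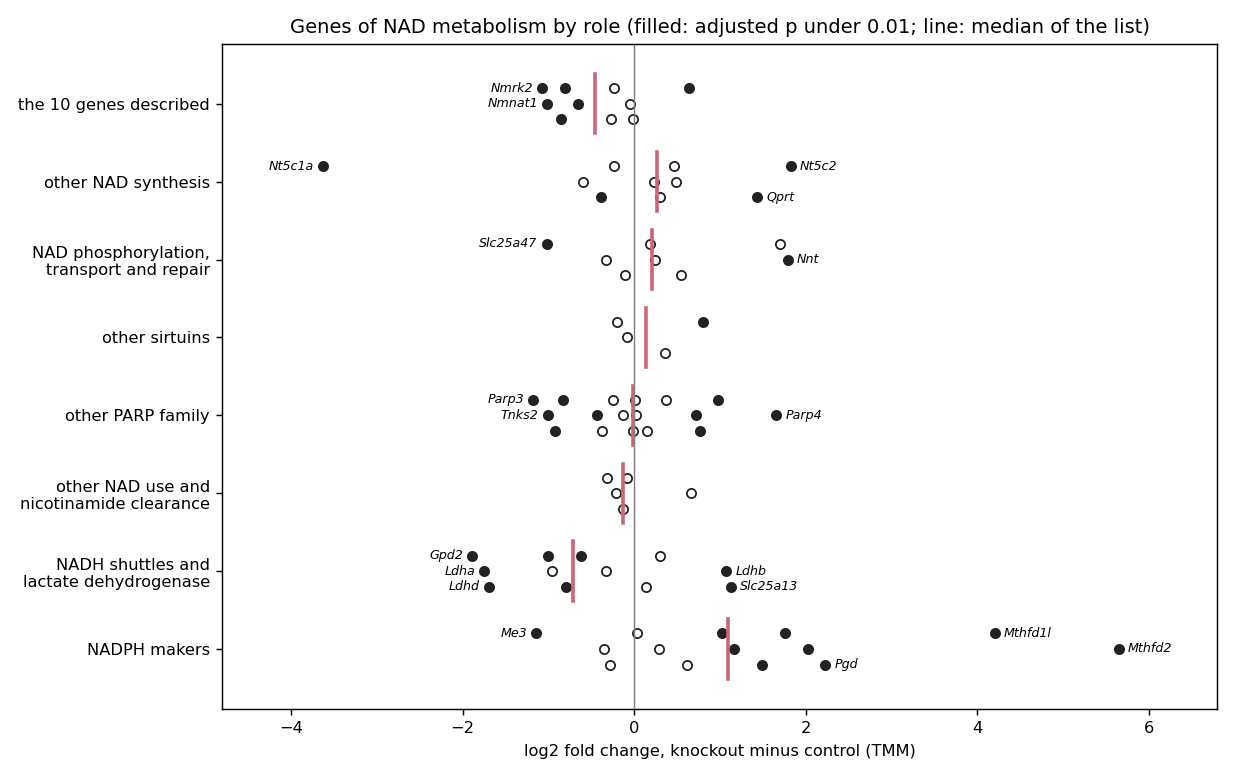
Log2 fold change, knockout minus control under TMM (x axis), of the 10 genes and of 7 lists of NAD metabolism (rows), with filled points for an adjusted p under 0.01, open points for the rest and a line at the median of the list. The 10 genes have their median at -0.46, the NADH shuttles at -0.71 and the NADPH makers at 1.09, and named points are the called genes that changed 2-fold or more, at most 3 a row and direction.

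Markers of other cells and states moved with the groups. Markers of satellite cells and myoblasts, among them the embryonic and perinatal myosins Myh3 and Myh8, summed to 59.2 to 66.9 CPM in controls and 796 to 1657 CPM in knockouts, with 5 of 8 higher and 1 lower. These myosins made up most of the knockout sums, with means of 312 ± 149 CPM for Myh3 and 673 ± 271 CPM for Myh8. Myog was also higher, by 3.96 on the log2 scale (adjusted p = 1.0e-06 in edgeR). So were Myf5, by 1.44 (adjusted p = 2.6e-04), and Cdh15, by 0.51 (adjusted p = 0.0052). Pax7, the defining gene of satellite cells, had a log2 fold change of 0.28 (adjusted p = 0.28) and Myod1 one of 0.14 (adjusted p = 0.68), neither of which passed, and Calcr fell by 1.83 (adjusted p = 0.0017). Of 8 markers of slow and 2A fibres 5 were higher, and the sums ran from 353 to 1724 and from 1496 to 2752 CPM. Macrophage markers summed to 80.0 to 214 CPM and 178.8 to 335 CPM, with 1 of 10 higher in edgeR, 4 in DESeq2 and 9 on library totals alone. The 3 neutrophil markers measured summed to 0.458 to 4.20 and 17.3 to 37.8 CPM, in the knockouts mostly S100a8 (a mean of 0.366 CPM in controls and 22.8 CPM in knockouts), while S100a9 and Csf3r did not pass.

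Markers of endothelium were lower in 6 of 8 genes (322 to 477 and 239 to 269.9 CPM summed), those of fibroblasts in 5 of 8 (1790 to 2643 and 707 to 1085 CPM) and those of smooth muscle in 4 of 5 (389.6 to 625 and 345 to 398 CPM). On totals alone these became 0, 1 and 0 lower genes. Adipocyte markers (272 to 1582 and 784 to 3113 CPM) and Schwann cell markers (69.4 to 182 and 94.5 to 146 CPM) had 0 called of 8 and 0 of 6 in edgeR, with 2 and 1 at an unadjusted p under 0.05, and 1 and 0 in DESeq2. Proliferation markers summed to 32.8 to 36.1 and 46.2 to 70.4 CPM, with 3 of 10 higher in edgeR, 7 in DESeq2 and 7 on library totals alone. No marker measured was at 0 in all libraries. With the adipocyte markers as a covariate the same counts, 1 higher and 5 lower of the 10 genes, were obtained, and the part of the other cell types in these changes was not tested.

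The E-box is the element of CLOCK and BMAL1, whose mRNAs were read beside it. The 16 clock genes had 5 higher and 6 lower members and a median of -0.32, and on library totals alone 8 higher, 3 lower and a median of 0.35. Arntl, which encodes BMAL1, was 34.8 ± 8.58 CPM in controls and 6.98 ± 1.68 CPM in knockouts, a fall of 2.32 on the log2 scale (adjusted p = 1.0e-05). Clock was 34.5 ± 2.65 and 33.2 ± 1.07 CPM (adjusted p = 0.51). Sirt1 and Parp1, the genes of the 10 with this motif, moved in opposite directions. The hour at which the mice were killed is not given in the sources used here, and the part of the clock was not tested.

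The genes whose log2 CPM followed Sirt1 and Nmrk2 most closely were looked up among 11048 genes with a mean count of at least 50. These correlations run over 8 libraries in 2 groups, so that any gene that differs between the groups scores high. For Sirt1 they were Tnnt1, the slow troponin T (r = 0.993), Srgap3 (0.993), Pemt (0.992), Hsp90b1, a chaperone of the endoplasmic reticulum (0.991), and Atp6v0d1 (0.990). For Nmrk2 they were Eif4ebp2, a repressor of translation (r = 0.991), Stab2 (0.989), Polrmt, the mitochondrial RNA polymerase (0.989), Mrm2 (0.986) and Naa60 (0.985).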

How the data were processed

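RNA from QF muscle of 4 knockout and 4 control mice was analysed, 1 library per animal by the labels. The deposited values are raw counts of read pairs on the exons of each gene, obtained by the authors from polyadenylated, directional libraries with bcl2fastq 2.20.0.422 and cutadapt, then STAR 2.5.4b (GRCm38), then Rsubread, without duplicate, chimeric or multimapping reads and without genes of low total count. The deposited FPKM values, which the authors derived from these counts, the exon widths and DESeq2 size factors, served for levels between genes. The authors' own DESeq2 1.32.0 comparison columns (fold changes and p-values) were not used. The use of strand and the annotation release are not given in the sources used here.

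With R 4.3.3 and edgeR 4.0.16, all 14012 genes were fitted with TMM factors, the group as the single term and the quasi-likelihood test (glmQLFit, glmQLFTest), with Benjamini-Hochberg adjustment over all genes at an adjusted p under 0.01. Standard errors are the absolute log2 fold change over the square root of F. CPM uses TMM-scaled library sizes. Ratios are log2 of counts plus 0.5 within a library, tested over the 70 assignments of 4 against 4 with adjustment over 6 ratios at 0.05. Log2 CPM for correlations had a prior count of 2. No pair of replicates agreed within sampling noise (chi-square over its degrees of freedom between 16.8 and 42.5). On simulated data with the depths of these libraries (13990 genes) edgeR recovered 81% of genes changed by 1 and 99% of those changed by 2 on the log2 scale, with 1 unchanged gene called. The simulation changed 100 genes by each amount, as many up as down, among genes with a mean above 50 counts. Both groups otherwise had the composition of the controls. The effect of a difference in composition on the calls was therefore not tested there.

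The 10 genes and all lists were chosen with earlier results of these data known. From the lists of NAD metabolism, genes past the threshold with a log2 fold change of at least 1 in size were named, at most 3 per list and direction, plus Nadk, Nnt, Nnmt, Cd38, Slc25a51, Sirt2, Naprt and Qprt. The most alike genes were taken for the largest rise and the largest fall. Naxe, Naxd, Adprs, Ly6g, Mpo, Cxcr2 and Retnlg were not analysed here. Alternatives were the scaling, abundant genes, low counts, depth, DESeq2 1.42.0, a threshold of 0.05, the replicate number, adipocyte markers as a covariate, the prior count and each library left out.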

Additional observations from a re-analysis of the deposited data

Results flagged for a closer look

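The log2 ratio of Sirt3 to Sirt1 in control replicate 3 was 0.51, where the other 3 controls lay between 1.14 and 1.26. Its gap to the nearest of them was 0.845 of the range of the group, past Dixon's limit for 4 samples. It was the 1 value so marked among 32 groups of 4 examined, where chance marks about 1 group in 20. This library had the lowest Sirt3 of the controls, 16.2 CPM, and the highest Sirt1, 11.4 CPM. It lay on the side of the knockouts, whose highest value was -0.028. Without it the ratio differed between the groups by -1.45 in place of -1.28.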

How the results depend on the processing

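The 6 genes of the 10 that passed kept their direction and passed with RLE and upper-quartile factors, without the 20 most abundant genes, with a filter on low counts, at thinned depth, in DESeq2, with adipocyte markers as a covariate and without each library in turn. Library totals alone, which leave composition unadjusted, gave 4 higher and 0 lower of the 10 genes, with a median of 0.20. Of all 14012 genes they gave 8498 higher and 873 lower. They also turned Nampt (0.66), Nmnat3 (0.40), Nmrk1 (0.43), Sirt3 (0.0073) and Sirt5 (0.63) positive. Nampt was also positive with upper-quartile factors (0.018), the filter (0.0038) and the covariate (0.028), and ran from -0.080 to 0.078 without 1 library. Sirt5 ran from -0.16 to 0.020. The cause of these reversals, beyond the shift of all genes under totals, was not tested. At a threshold of 0.05, 7 of the 10 genes passed, Nmnat3 being added, where 8284 of all 14012 genes passed.

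Leaving out 1 library gave ranges of -0.96 to -0.75 for the ratio of Nmrk2 to Nmrk1, -1.24 to -0.97 for Nmrk2 to Nampt, 0.70 to 0.85 for Nmnat3 to Nmnat1, -1.45 to -1.21 for Sirt3 to Sirt1, 0.44 to 0.74 for Sirt5 to Sirt3 and -1.63 to -1.23 for Nadk2 to Nadk. Without any 1 knockout library the adjusted p of the ratios that passed stayed at 0.0343 in the exact permutation test. The adjusted p rose to 0.0571 for Nmrk2 to Nmrk1, Nmnat3 to Nmnat1 and Sirt3 to Sirt1 without control replicate 4, and for Nmrk2 to Nampt without control replicate 3 or 4. For Nadk2 to Nadk it rose to between 0.0571 and 0.0686 without any 1 control, and for Sirt5 to Sirt3 it fell to 0.0429 without control replicate 3. With all libraries, each ratio that passed had the smallest p that 4 against 4 allow (0.0286, exact permutation test). The test moves in coarse steps: the shift of Nadk2 to Nadk was larger without control replicate 4 (-1.49) than with all libraries (-1.37), yet its adjusted p rose.

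The groups share replicate numbers, but same-numbered libraries deviated together only in part (correlations 0.21, 0.035, 0.51 and 0.16), not every library correlated best with its own number, and the labels give the number no meaning. With a replicate block 6123 genes passed in place of 6265, and the same 1 higher and 5 lower of the 10 genes, with Nmrk2 at -1.09 and Sirt1 at 0.64. Nmrk1 had the fewest counts of the 10 genes, 52 to 100 per library. Of 480 list values without 1 library, 37 changed by over 1.5 times or in sign. Among them, macrophage markers had 4 genes higher without control replicate 1, proliferation markers 5 without knockout replicate 1 and 6 without knockout replicate 3, and phosphorylation, transport and repair 2 higher or 2 lower genes in some fits, as in DESeq2 (2 lower).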
